A study of Homo sapiens with 24 samples.

Results

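The replication-dependent histone genes lie in clusters, and their symbols in the deposited gene models start with HIST1H, HIST2H, HIST3H or HIST4H. Every gene with such a symbol was taken, which gave 73 of the 23106 genes in the count files. They comprise 6 genes for the linker histone H1 and 18, 20, 14 and 15 genes for the core histones H2A, H2B, H3 and H4. The HIST1 cluster on chromosome 6 holds 56 of them, HIST2 holds 13, HIST3 holds 3 and HIST4 holds 1.

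Gene counts were analyzed for 4 human cancer cell lines, A549 (lung), HCT116 (colon), PC3 (prostate) and T47D (breast), in a study of hypoxia-inducible factor (HIF) pathways. In each line, normoxia (21% oxygen) and hypoxia (0.5% oxygen for 16 h) were each sampled with 3 libraries, which gives 24 libraries in 8 groups. A549 and PC3 cells were grown in F12K medium, HCT116 cells in McCoy's 5a and T47D cells in DMEM, each with fetal bovine serum, so that line and medium cannot be told apart for HCT116 and T47D cells. The labels name no engineered allele and no drug. The libraries were made from poly(A)-selected RNA. The paper names the mirVana or RNeasy Plus kit for RNA and the ScriptSeq or NEBNext kit for libraries. Which line had which kit was not stated, so line and kit cannot be told apart in comparisons of levels between lines. It was not stated in the sources used here whether replicates were separate cultures, so p values measure only the spread between these libraries.

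Library totals ranged from 22698584 to 62850747 counts. Levels are given as CPM, counts scaled to the library size after TMM normalization over the 24 libraries. A floor of 3 counts is worth 0.0436 to 0.132 CPM, depending on the library, and it covers counting error only. Of 8 hypoxia markers, 8 were higher in hypoxia in A549, HCT116 and T47D cells and 7 in PC3 cells. CDKN2A, which is deleted in A549 cells, had 0 counts there. All 5 luminal breast markers were over 1 CPM in T47D cells, with a sum of 1508 to 2362 CPM. None of 5 lung markers reached a group mean of 1 CPM in A549 cells, where SFTPA1 was at 0 and the sum was 0.121 to 0.688 CPM. In HCT116 cells CDX2 was the only one of 5 colon markers over 1 CPM (sum 10.4 to 23.3 CPM) and CDX1 and LGR5 were at 0. In PC3 cells the prostate markers KLK2 and KLK3 were at 0, and TMPRSS2 was over 1 CPM.

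Library 2 of HCT116 normoxia stood apart from the other 23 libraries. The summed level of RNAs that are made without a poly(A) tail (small nucleolar and Cajal body RNAs, 7SK, RMRP and the like) was 67.5 CPM in it, against 18.5 and 14.4 CPM in the other normoxic HCT116 libraries and 5.25 to 8.52 CPM in the hypoxic ones. In the other 3 lines that sum was 3.28 to 11.4 CPM. The histone results of HCT116 cells are therefore given with and without this library.

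Replication-dependent histones package newly made DNA, and their genes are transcribed mainly in S phase, with NPAT as a coactivator. Their mRNAs are the classic exception to polyadenylation. The end of the transcript folds into a stem-loop that is bound by SLBP, and the RNA is cut just after it with the help of the U7 small nuclear ribonucleoprotein, so that most of these mRNAs carry no poly(A) tail. Some histone genes can also be read past the stem-loop into an ordinary polyadenylation site, a form known from cells that have left the cell cycle. Poly(A) selection keeps the tailed form and little of the rest, so the levels below are those of the RNA that was selected and not of all histone mRNA. In such bulk samples, fewer cells in S phase and less RNA per cell cannot be told apart.

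The sequence of the stem-loop was found within 150 bases after the stop codon in 67 of the 70 members that have a GENCODE 44 record. It is shown for 5 genes on which the results turn, on the gene's strand in GRCh37, with the stem in capitals, a loop of 4 bases between its arms and 5 flanking bases on each side.
HIST1H2BD (chr6:26158810-26158835, plus strand): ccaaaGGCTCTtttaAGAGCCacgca
HIST1H2BK (chr6:27114140-27114165, minus strand): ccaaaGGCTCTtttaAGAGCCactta
HIST1H2AC (chr6:26124892-26124917, plus strand): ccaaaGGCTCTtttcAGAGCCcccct
HIST1H1C (chr6:26055967-26055992, minus strand): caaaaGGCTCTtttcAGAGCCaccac
HIST1H4H (chr6:26285354-26285379, minus strand): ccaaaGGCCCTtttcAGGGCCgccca
The form of HIST1H2AC and HIST1H1C was the most frequent, with 39 members, and the form of HIST1H2BD and HIST1H2BK had 9 members. The form of HIST1H4H had 9 members, and all 9 encode H4.

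The hexamer AATAAA, the usual signal for a poly(A) tail, followed within 50 bases of the stem-loop in 4 members, HIST1H2BD, HIST1H1C, HIST2H2AA3 and HIST2H2AA4. It is shown for the 2 of them that had counts, in 30 bases that begin inside the stem-loop, on the gene's strand in GRCh37 with the hexamer in capitals.
HIST1H2BD (chr6:26158819-26158848, plus strand): cttttaagagccacgcatgttttcAATAAA
HIST1H1C (chr6:26055954-26055983, minus strand): cttttcagagccaccactgatctcAATAAA
In both genes the hexamer begins at base 13 after the stem-loop. A match is a description of the sequence and does not show that a tail is added there.

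Annotated transcripts reach at least 100 bases past the stem-loop in 18 members and end at it in 49. HIST1H2BD (now H2BC5, chr6:26158350-26171577, plus strand) has 2 annotated transcripts, one of which runs 12747 bases past its stem-loop through a second exon. HIST1H2AC (H2AC6, chr6:26124373-26139344, plus strand) runs 14432 bases past it, HIST1H4H (H4C8, chr6:26277837-26285866, minus strand) 7522 bases and the single-exon HIST2H2BE (H2BC21, chr1:149856009-149858232, minus strand) 1729 bases. HIST1H2BK (H2BC12, chr6:27114140-27114634, minus strand) and HIST1H1C (H1-2, chr6:26055968-26056698, minus strand) are annotated to end at the stem-loop.

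The promoters of 65 members were in the RefSeq table for GRCh38.p14, as the 250 bases before and 50 bases after the start. CCAAT, the box bound by NF-Y, was present on either strand in 84.6% of the members' promoters and in 34.6% of all 35116 promoters. TATAAA was present in 66.2% of them against 11.5% of all promoters. ATTTGCAT, the octamer bound by OCT1 (POU2F1), was present in 40.0% against 1.77%, in 14 of 18 H2B and 11 of 16 H2A promoters but in 0 of 13 H4 promoters. The core letters bound by HIF were less frequent in the members' promoters than in all of them, at 13.8% against 21.4% for ACGTG and 15.4% against 36.5% for GCGTG. Some promoters are shared or nearly identical between members, so they are not independent.

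The 250 bases before the start are shown for HIST1H2BD, which was called higher in hypoxia in every line, for HIST1H2BK, which had the highest level, and for HIST1H2BJ, whose promoter resembles that of HIST1H2BK while its level did not. Capitals mark, on either strand, the CCAAT box, the TATAAA box, the octamer and the ACGTG core, and GRCh38.p14 coordinates are given.
HIST1H2BD (chr6:26157871-26158120, plus strand): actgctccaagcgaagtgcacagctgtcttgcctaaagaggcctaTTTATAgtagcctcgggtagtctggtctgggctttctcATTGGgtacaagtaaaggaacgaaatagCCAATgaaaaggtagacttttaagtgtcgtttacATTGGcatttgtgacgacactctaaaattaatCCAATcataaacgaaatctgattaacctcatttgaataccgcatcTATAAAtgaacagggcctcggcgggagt
HIST1H2BK (chr6:27146859-27147108, minus strand): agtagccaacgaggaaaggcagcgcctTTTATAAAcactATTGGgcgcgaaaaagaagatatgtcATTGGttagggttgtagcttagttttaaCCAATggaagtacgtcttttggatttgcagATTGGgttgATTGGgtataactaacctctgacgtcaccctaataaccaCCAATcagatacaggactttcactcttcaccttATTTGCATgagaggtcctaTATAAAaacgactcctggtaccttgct
HIST1H2BJ (chr6:27132796-27133045, minus strand): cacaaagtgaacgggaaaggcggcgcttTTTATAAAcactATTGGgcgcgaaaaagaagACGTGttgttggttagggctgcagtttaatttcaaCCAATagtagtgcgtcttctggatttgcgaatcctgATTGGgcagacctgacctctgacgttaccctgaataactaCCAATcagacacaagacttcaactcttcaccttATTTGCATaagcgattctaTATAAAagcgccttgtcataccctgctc
The HIST1H2BD window held 4 CCAAT boxes and a TATAAA 28 bases before the start, and neither the octamer nor the core letters bound by HIF. The HIST1H2BK window held 6 CCAAT boxes, a TATAAA 27 bases before the start and the octamer 46 bases before it. The HIST1H2BJ window held 4 CCAAT boxes, the octamer 47 bases before the start and ACGTG 191 bases before it. When aligned, the HIST1H2BK and HIST1H2BJ promoters were identical at 74.4% of positions, the eighth highest of 2080 pairs of members (median 50.4%).

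Most members were scarce in these libraries. The median count per library was under 10 in 36 of the 73 members, and 30 members had a mean over 1 CPM in at least 1 group. Between 6 members (HCT116 hypoxia) and 25 members (T47D normoxia) were over 1 CPM in a group. There were 9 members with 0 counts in all 24 libraries. They include HIST2H2AA3, HIST2H2AA4, HIST2H3A, HIST2H3C, HIST2H4A and HIST2H4B, in which every window of 50 bases occurs elsewhere in GRCh37, and for which fragments without a unique position had been removed before counting. The other 3 were HIST1H2AA, HIST1H2APS1 and HIST1H2BA. At least 50% of the windows recur in 15 members, including HIST1H2BK (57.2%), HIST1H2AI (63.5%), HIST1H2AJ (66.3%) and HIST1H4K (92.6%), and the counts of these genes are uncertain.

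HIST1H2BK, an H2B gene, had the highest level of all members in 7 of the 8 groups. In normoxia it measured 75.4, 55.4 and 68.3 CPM in A549 cells, 9.69, 10.3 and 13.2 CPM in HCT116 cells, 67.7, 64.1 and 70.6 CPM in PC3 cells and 186, 200 and 264 CPM in T47D cells. A549 and PC3 cells overlapped in this order, HCT116 cells were below them and T47D cells above. It made up 46.6% of the members' summed level in A549 normoxia and 25.8% in HCT116 hypoxia. In HCT116 normoxia HIST3H2A came first with 31.0% of the sum, where library 2 held 36.8 CPM against 13.9 and 14.2 CPM. HIST1H2BK passed the test in none of the 4 lines, with log2 fold changes of -0.05 ± 0.12 (SE), 0.11 ± 0.21, 0.24 ± 0.10 and -0.04 ± 0.26 over A549, HCT116, PC3 and T47D in that order. In PC3 cells the groups did not overlap (90.9, 82.4 and 75.1 CPM in hypoxia), with an adjusted p of 0.0971.

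The order of levels between genes was read per kilobase of exon, as the mean CPM of the 8 groups divided by the GENCODE exon length. HIST1H2BK (187 CPM per kb) and HIST1H2BD (24.6) led the H2B genes, and HIST1H1C (44.9) was far above HIST1H1E (0.729) among the H1 genes. HIST1H2AC (11.4) and HIST3H2A (10.4) led the H2A genes, HIST1H3D (3.65) and HIST1H3H (1.69) the H3 genes and HIST1H4H (1.86) and HIST1H4E (1.23) the H4 genes. The length of the canonical transcript instead of all exons put HIST3H2A (37.8) above HIST1H2AC (36.7) and HIST1H3H (4.34) above HIST1H3D (3.65). Counting had used UCSC gene models, whose lengths were not used here.

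**Figure D1:**
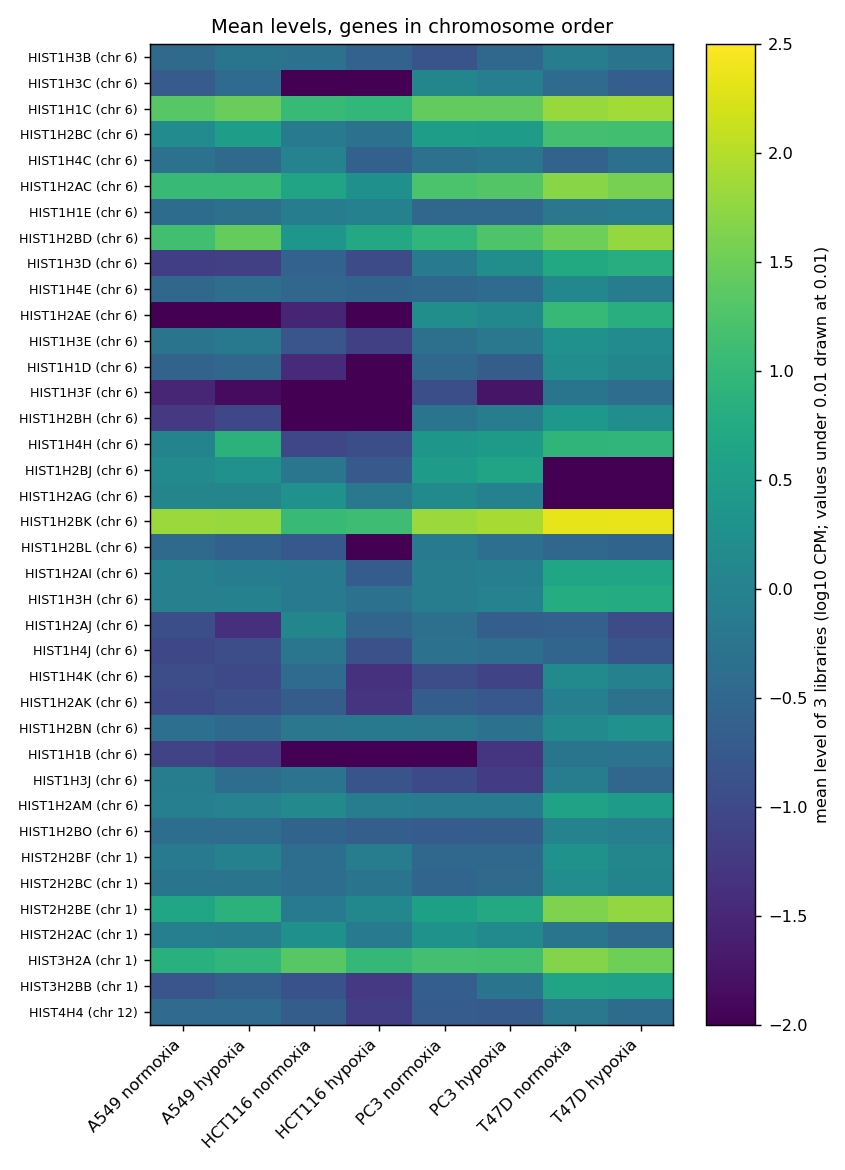
Mean level (log10 CPM, 3 libraries a group) of the 38 histone cluster genes with a group mean over 0.5 CPM, in order along the chromosomes, with values under 0.01 CPM drawn at 0.01. HIST1H2BK is the brightest gene in 7 of the 8 groups, and HIST1H2BJ and HIST1H2AG are dark in both T47D groups.

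To ask how hypoxia changed these genes, each line was tested on its own over all genes, and a gene was called where its fold change exceeded 1.2 and its adjusted p was under 0.05. In A549 cells 34 members had enough counts to be tested and 5 were higher in hypoxia (14.7%, against 17.6% of all genes tested) and 0 lower (against 17.8%). In HCT116 cells 30 were tested, of which 1 was higher (3.33%, against 23.3%) and 8 were lower (26.7%, against 27.0%). In PC3 cells 34 were tested, of which 2 were higher (5.88%, against 16.6%) and 0 lower (against 15.7%). In T47D cells 42 were tested, of which 1 was higher (2.38%, against 6.55%) and 0 lower (against 6.69%). The 26 members tested in no line had too few counts, and 18 members were tested in all 4 lines. The members' shares of higher genes were thus below those of all genes in each line in this fit, and their share of lower genes in HCT116 cells was near it. In A549 cells this turned with library totals alone (14.7% of members against 12.8% of all genes higher) and among genes whose counts averaged 50 or more (5 of 11 members, 45.5%, against 19.5%). It also turned there without hypoxia library 2 (13.5% against 12.9%), normoxia library 1 (13.2% against 12.5%) or normoxia library 2 (13.9% against 11.7%). In HCT116 cells the share of lower genes moved both ways. Among genes whose counts averaged 50 or more, 4 of 9 members were lower (44.4%, against 26.7%), and without normoxia library 2, 0 of 31 were (against 19.6%). The median of the mean counts of the members tested was 30.3 for A549, 30 for HCT116, 32.8 for PC3 and 81.3 for T47D, against 1308, 1255, 1167 and 1410 for all genes tested, so the tests of members rested on fewer counts.

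Where edgeR called 0 members lower, 3 members (A549), 0 (PC3) and 3 (T47D) were lower at an unadjusted p under 0.05, and DESeq2 called 0 lower in each of these lines. The median log2 fold change of the members tested was 0.12 in A549, -1.06 in HCT116, 0.00 in PC3 and -0.51 in T47D cells, against -0.01, -0.03, -0.01 and -0.01 for all genes tested.

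HIST1H2BD, an H2B gene, was the only member called in the same direction in all 4 lines. In A549 cells it measured 14.1, 11.99 and 15.4 CPM in normoxia and 29.8, 23.5 and 30.03 CPM in hypoxia. In HCT116 cells it measured 1.53, 2.73 and 2.71 CPM in normoxia and 3.92, 5.57 and 6.04 CPM in hypoxia. In both lines every hypoxic library was above every normoxic one. In PC3 cells it measured 10.5, 8.95 and 7.53 CPM in normoxia and 22.7, 17.1 and 15.8 CPM in hypoxia, again without overlap. In T47D cells, where its level was highest, it measured 25.1, 29.8 and 42.6 CPM in normoxia and 41.5, 66.9 and 72.8 CPM in hypoxia, and the lowest hypoxic library was just below the highest normoxic one.

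The rise of HIST1H2BD was 2.005-fold in A549 cells (log2 fold change 1.003 ± 0.14 SE, adjusted p = 0.000359), 2.052-fold in HCT116 cells (1.04 ± 0.31, adjusted p = 0.0141), 1.996-fold in PC3 cells (0.997 ± 0.17, adjusted p = 0.00399) and 1.77-fold in T47D cells (0.82 ± 0.25, adjusted p = 0.0467). A difference between lines in this rise was not detected (adjusted p = 0.951 for the interaction of line and oxygen). The call in T47D cells came from a fit that did not pair the libraries, and it was close to the threshold. It was lost in 5 of 13 alternatives, with an adjusted p of 0.246 without normoxia library 1, 0.167 without normoxia library 2, 0.102 without hypoxia library 2, 0.0696 without hypoxia library 3 and 0.0690 with scaling to library totals alone. The calls in the other 3 lines were kept in all 13 alternatives.

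**Figure D2:**
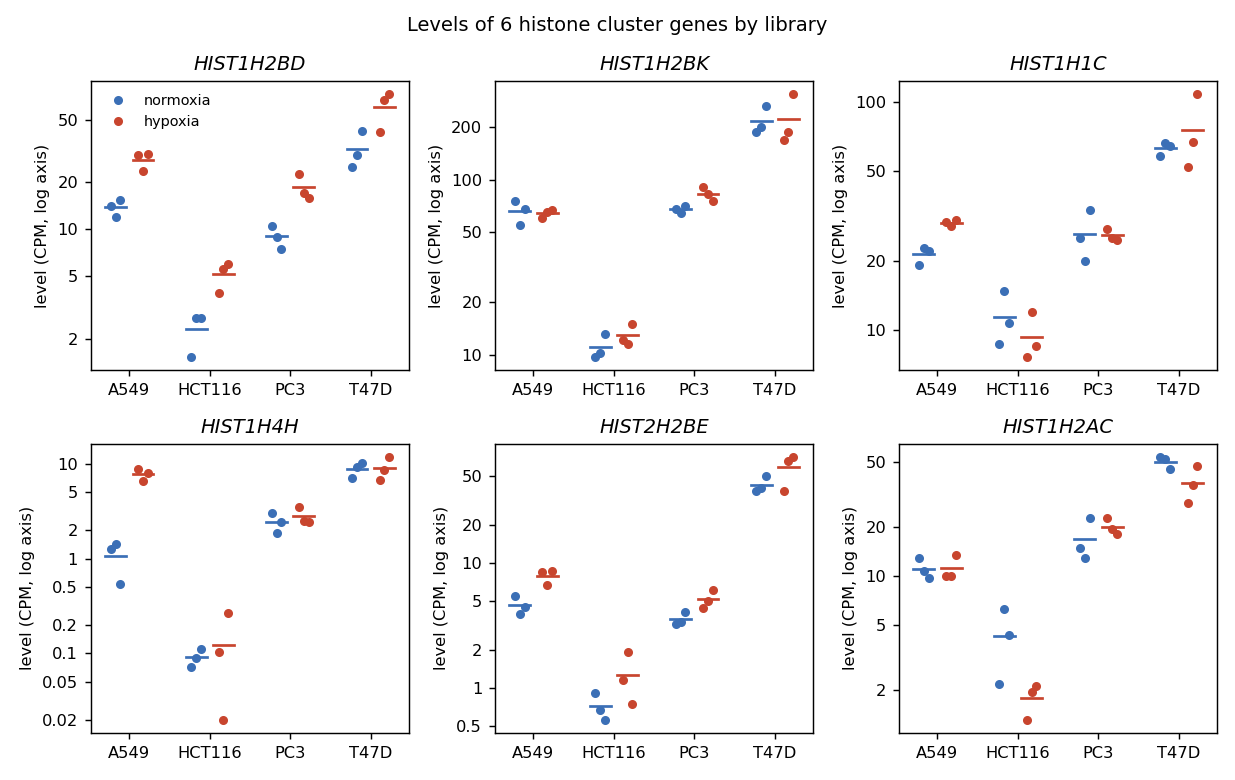
Level (CPM, log axis) of 6 histone cluster genes in each of the 24 libraries, with a dot for each library and a line for the mean of 3, and a value of 0 drawn at 0.02. HIST1H2BD is higher in hypoxia in each line, HIST1H4H is higher in hypoxia in A549 cells, and HIST1H2AC is lower in hypoxia in HCT116 cells, where normoxia library 2 is the highest.

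In A549 cells the largest rise was that of HIST1H4H, an H4 gene. It measured 1.26, 1.41 and 0.542 CPM in normoxia and 8.73, 6.60 and 8.04 CPM in hypoxia, a 7.24-fold rise (log2 fold change 2.86 ± 0.30 SE, adjusted p = 5.62e-05). It accounted for most of the rise of the summed H4 level from 3.23 ± 0.30 to 9.71 ± 0.75 CPM (SD, n = 3). Its exons overlap an annotated gene on the opposite strand. The strand setting of the counting was not stated in the sources used here, so reads of that gene cannot be told apart from those of HIST1H4H.

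Also in A549 cells, 3 H2B genes were called higher. HIST1H2BD is given above. HIST1H2BC measured 1.85, 1.52 and 1.16 CPM in normoxia and 3.09, 2.94 and 3.82 CPM in hypoxia (log2 fold change 1.12 ± 0.26 SE, adjusted p = 0.00595). Its annotated transcripts overlap HFE on the opposite strand, and it is uncertain for the same reason. HIST2H2BE measured 5.43, 3.88 and 4.44 CPM in normoxia and 8.52, 6.64 and 8.68 CPM in hypoxia (0.79 ± 0.19, adjusted p = 0.00719). The fifth gene was HIST1H1C, which encodes the linker histone H1.2 and measured 19.3, 22.8 and 22.3 CPM in normoxia and 29.8, 28.6 and 30.2 CPM in hypoxia (0.45 ± 0.11, adjusted p = 0.00843). In these 5 genes every hypoxic library was above every normoxic one, and the 5 calls were made with each of the 6 libraries left out. The call of HIST1H1C was lost in one fit of all 24 libraries (0.46, adjusted p = 0.168).

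The summed level of all members in A549 cells was 154, 130 and 144 CPM in normoxia and 174, 165 and 189 CPM in hypoxia. The ratio of the means was 1.24, without overlap between the groups, and 1.47 without HIST1H2BK. In the other lines the groups overlapped. The ratio was 0.715 in HCT116 cells, and 0.898 without normoxia library 2. Without HIST1H2BK it was 0.630 in HCT116 cells, without overlap, and 0.839, still without overlap, when normoxia library 2 was left out too. The ratio was 1.18 in PC3 cells. In T47D cells it was 1.04, with no stable direction, since it was 0.864 without hypoxia library 3, 1.18 without hypoxia library 1 and 0.903 with library totals alone. The summed H2B level was higher in hypoxia without overlap in A549 (90.7 ± 12.6 to 108 ± 5.75 CPM, SD, n = 3), HCT116 (17.6 ± 1.89 to 22.5 ± 1.15 CPM) and PC3 cells (90.9 ± 5.26 to 119 ± 11.5 CPM), and overlapped in T47D cells (331 ± 56.2 to 374 ± 107 CPM). The tested H2B genes were mixed, with median log2 fold changes of 0.42, 0.11, 0.12 and -0.19 over A549, HCT116, PC3 and T47D in that order. Of them, 5 of 11, 3 of 9, 6 of 14 and 10 of 13 were below 0. HIST1H2BD accounted for most of the rise of the H2B sum in A549 and HCT116 cells. HIST1H2BK, which was not called, accounted for most of it in PC3 cells (means of 67.5 CPM in normoxia and 82.8 CPM in hypoxia). The summed H2A and H4 levels went the other way in HCT116 cells, from 33.9 ± 19.0 to 14.6 ± 1.76 CPM and from 3.45 ± 1.71 to 1.28 ± 0.62 CPM, without overlap, and from 22.9 and 2.48 CPM in normoxia, again without overlap, when normoxia library 2 was left out. H4 was higher in hypoxia in A549 cells, as given above. The H2A sums of A549, PC3 and T47D cells and the H4 sums of PC3 and T47D cells overlapped. H1 was higher in hypoxia without overlap in A549 cells (22.3 ± 2.02 to 30.4 ± 0.66 CPM) and overlapped in the other lines, as did H3 in all 4 lines.

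HCT116 cells were the line in which members were called lower, namely 6 H2A genes and 2 H4 genes. HIST3H2A measured 13.9, 36.8 and 14.2 CPM in normoxia and 8.92, 12.1 and 8.42 CPM in hypoxia (log2 fold change -1.27 ± 0.35 SE, adjusted p = 0.00822). HIST1H2AC measured 2.18, 6.28 and 4.34 CPM in normoxia and 1.31, 1.95 and 2.12 CPM in hypoxia (-1.38 ± 0.39, adjusted p = 0.00976). HIST1H4K had 12, 24 and 22 counts in normoxia and 2, 5 and 0 counts in hypoxia (-2.90 ± 0.81, adjusted p = 0.00976). HIST1H4C had 49, 69 and 33 counts in normoxia and 10, 19 and 5 counts in hypoxia (-2.07 ± 0.58, adjusted p = 0.00981). These H4 genes had far fewer counts than the H2A genes just given. HIST1H2AJ, HIST1H2AI, HIST1H2AG and HIST2H2AC had log2 fold changes of -1.48 to -2.06, with adjusted p values of 0.0107 to 0.0263. In each of the 8 genes every hypoxic library was below every normoxic one, and normoxia library 2 was the highest.

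Without normoxia library 2, edgeR called 0 of 31 members lower in HCT116 cells, with 4 lower at an unadjusted p under 0.05, while 19.6% of all genes tested were still called lower. DESeq2, with all 6 libraries, called 10 of 43 members lower (23.3%, against 24.3% of all genes). In the edgeR fit without normoxia library 2, HIST3H2A changed by -0.56 ± 0.23 (SE, adjusted p = 0.0717) and HIST1H2AC by -0.92 ± 0.39 (adjusted p = 0.0824). In that fit HIST1H4C changed by -1.51 ± 0.63 (adjusted p = 0.0787), HIST1H4K by -2.47 ± 0.94 (adjusted p = 0.0576) and HIST1H2AG by -0.87 ± 0.51 (adjusted p = 0.194). All 8 genes kept a log2 fold change below 0. The median over the 30 members moved from -1.06 to -0.67. HIST1H2BD went the other way and was still called higher, with a log2 fold change of 1.24 ± 0.35 (adjusted p = 0.0167).

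In HCT116 cells RNAs made without a poly(A) tail were lower in hypoxia too. Of 430 such genes listed, 7 were tested in HCT116 cells and 6 were lower in hypoxia (median log2 fold change -2.33), and 3 of them were still called without normoxia library 2. In the other lines 4, 5 and 7 such genes were tested in A549, PC3 and T47D cells, and 1 was lower in each. There the 2 summed levels did not move together. In A549 cells that of these RNAs fell from 9.24 to 6.42 CPM in hypoxia, without overlap, while that of the histone cluster genes rose (ratio 1.24). The ratios of these RNAs were 0.743 in PC3 and 0.762 in T47D cells, with overlap, against 1.18 and 1.04 for the histone cluster genes. Of all genes tested, 27.0% were lower in HCT116 cells and 17.8%, 15.7% and 6.69% in A549, PC3 and T47D cells. The part of RNAs made without a poly(A) tail in the histone results was not tested.

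**Figure D3:**
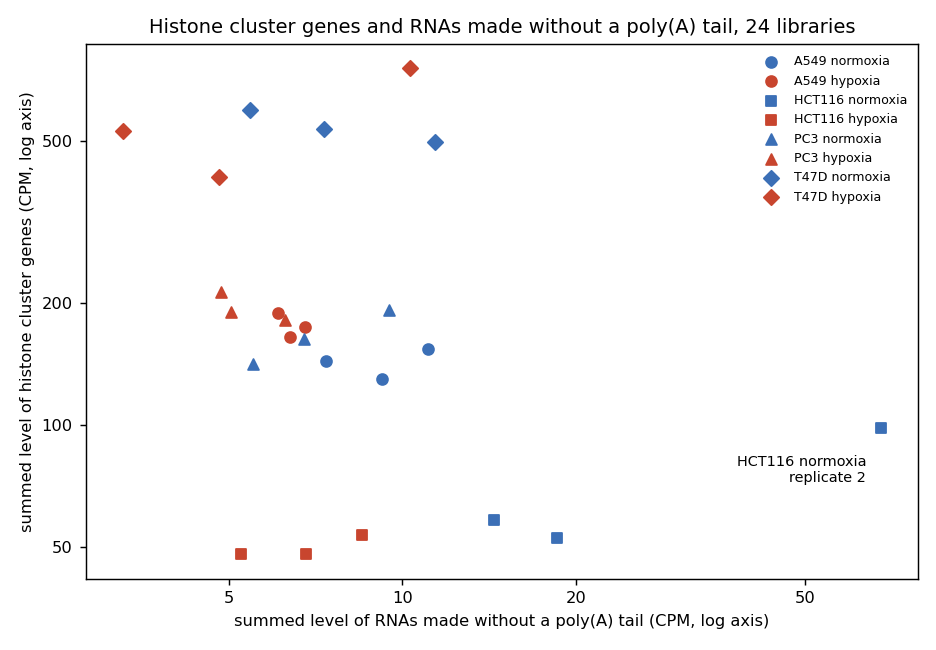
Summed level of the 73 histone cluster genes against the summed level of RNAs made without a poly(A) tail in each of the 24 libraries (CPM, both axes log), with shapes for lines and colours for oxygen. Normoxia library 2 of HCT116 lies far to the right at 67.5 CPM, with 98.3 CPM of histone RNA against 52.8 and 58.5 CPM in the other normoxic HCT116 libraries.

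In PC3 cells HIST1H3D, an H3 gene, was called higher beside HIST1H2BD. It measured 0.746, 0.442 and 0.985 CPM in normoxia and 1.92, 1.57 and 1.44 CPM in hypoxia (log2 fold change 1.15 ± 0.36 SE, adjusted p = 0.0333). The groups did not overlap, but the call was lost in 6 of 13 alternatives (log2 fold changes of 0.83 to 1.24, adjusted p values of 0.0586 to 0.105), which were each library left out except normoxia library 3, and one fit of all 24 libraries. Without normoxia library 3, 5 members were called higher (13.5%, against 14.7% of all genes), and HIST1H2AC, HIST1H2BK and HIST2H2BE joined the other 2. RefSeq gives HIST1H3D the same promoter window as HIST1H2AD. Its exons, like those of HIST1H2AC, overlap another annotated gene on the same strand, which makes its counts uncertain.

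In T47D cells HIST1H2BD was the only member called. Of the 42 members tested, 35 had a log2 fold change below 0. HIST1H2AC measured 53.5, 51.7 and 44.9 CPM in normoxia and 28.1, 36.2 and 47.1 CPM in hypoxia (-0.51 ± 0.22 SE, adjusted p = 0.142). HIST3H2A measured 44.7, 53.7 and 39.8 CPM in normoxia and 20.5, 27.0 and 49.9 CPM in hypoxia (-0.58 ± 0.29, adjusted p = 0.197). In both H2A genes hypoxia library 3 lay with the normoxic libraries. Without it, 4 members were called lower, HIST1H2AC, HIST3H2A, HIST1H2AE and HIST1H2AM (9.09% of the 44 tested, against 12.2% of all genes).

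The members were then described by what the annotation says of their 3-prime ends, since these libraries hold poly(A)-selected RNA. In A549 cells 4 of the 13 tested members annotated past the stem-loop were called higher, against 1 of the 20 annotated to end at it, with median log2 fold changes of 0.42 and -0.04. The summed level of the first kind was 43.9 ± 3.59 CPM in normoxia and 72.4 ± 9.89 CPM in hypoxia (SD, n = 3), a ratio of 1.65, and that of the second kind had a ratio of 1.05 with overlap. In HCT116 cells 1 of 9 members past the stem-loop was higher and 2 were lower, against 0 and 6 of the 20 that end at it. The medians were -0.68 and -1.45, and -0.20 and -0.87 over the same members without normoxia library 2.

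In PC3 cells the medians of the members past the stem-loop and of those that end at it were 0.24 and -0.11, with 1 of 12 and 1 of 19 called higher. In T47D cells the medians were -0.16 and -0.57, with 1 of 12 and 0 of 27 called higher. The median was thus higher for members annotated past the stem-loop in each of the 4 lines. These members also had more counts, with a median mean count of 86.2 against 22.2 in A549 cells and 444 against 38.8 in T47D cells, and no test of the difference was made. H2B genes made up a larger share of the members past the stem-loop than of those that end at it. The part of histone type in the difference was not tested. HIST1H2BK and HIST1H1C, annotated to end at the stem-loop, were nonetheless the highest and second highest members, each in 7 of the 8 groups, and members of that kind made up 68.7% of the summed level in A549 normoxia and 58.5% in A549 hypoxia.

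**Figure D4:**
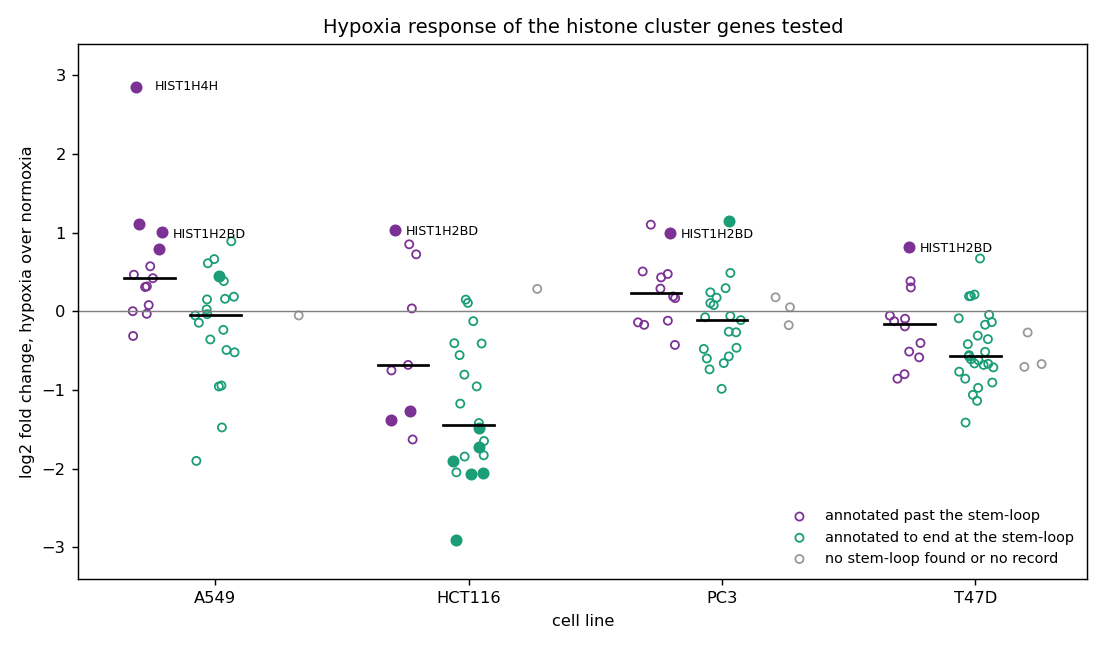
Log2 fold change (hypoxia over normoxia) of every tested histone cluster gene by line, in purple for genes annotated past the stem-loop, green for genes annotated to end at it and grey for the rest, with filled dots for calls and a black line for the median. The purple median is above the green one in each line, and HIST1H2BD lies between 0.82 and 1.04 in all 4 lines.

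Whether the hypoxia response differed between lines was tested as the interaction of line and oxygen over all 24 libraries. It passed at an adjusted p under 0.05 for 3 of the 50 members tested, against 18.3% of all genes tested. HIST1H4H (adjusted p = 0.00214) rose in A549 cells and was not called in PC3 cells (3.02, 1.86 and 2.42 CPM in normoxia, 3.49, 2.48 and 2.45 CPM in hypoxia) and in T47D cells (7.15, 9.26 and 10.3 against 6.74, 8.51 and 11.9 CPM). In HCT116 cells it had 7 counts or fewer in every library. HIST1H2AC (adjusted p = 0.0357) was lower in hypoxia in HCT116 cells and had a log2 fold change of 0.00 ± 0.16 (SE) in A549 and 0.19 ± 0.21 in PC3 cells. HIST1H2BL (adjusted p = 0.0447) had 13, 11 and 2 counts in HCT116 normoxia and 0 in each hypoxic library, and log2 fold changes of -0.52 ± 0.63, -0.66 ± 0.39 and -0.17 ± 0.57 in A549, PC3 and T47D cells. Blocked on replicate number, HIST1H2BL no longer passed (adjusted p = 0.0584). Without HCT116 normoxia library 2, HIST1H4H was the only member that passed. Without the libraries numbered 1 none of these 3 genes passed (HIST1H4H had an adjusted p of 0.0662), and without those numbered 2 HIST1H4H alone did. HIST1H2BC (adjusted p = 0.0522) and HIST1H4B (adjusted p = 0.0687) came next.

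In normoxia, 41 of the 48 members tested differed in level between the 4 lines, against 93.5% of all genes tested. The summed level was 544 ± 50.5 CPM (SD, n = 3) in T47D, 165 ± 25.2 in PC3, 143 ± 12.01 in A549 and 69.9 ± 24.8 CPM in HCT116 cells. PC3 and A549 cells overlapped in this order, and T47D cells were above and HCT116 cells below every library of the other lines.

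HIST1H2BJ and HIST1H2AG did not follow this order. They are divergent neighbours, an H2B and an H2A gene whose starts are 248 bases apart, and in T47D cells, the line with the most histone RNA, both had 0 counts in normoxia. HIST1H2BJ measured 1.42, 1.36 and 1.37 CPM in A549, 0.342, 0.782 and 0.638 CPM in HCT116 and 2.94, 2.25 and 3.58 CPM in PC3 normoxia (adjusted p = 1.18e-07 for a difference between lines). HIST1H2AG measured 1.30, 1.22 and 0.795 CPM in A549, 1.22, 3.42 and 0.973 CPM in HCT116 and 1.49, 0.939 and 1.85 CPM in PC3 normoxia (adjusted p = 5.7e-06). The pair next to it, HIST1H2BK and HIST1H2AH with 251 bases between their starts, differed within itself. HIST1H2BK had means of 66.4, 11.0, 67.5 and 216 CPM in A549, HCT116, PC3 and T47D normoxia, and HIST1H2AH 0.332, 0.342, 0.133 and 0.0909 CPM. The lack of HIST1H2BJ and HIST1H2AG counts in T47D cells was thus not shared with the neighbouring pair, and a loss of the locus and a lack of transcription cannot be told apart in RNA.

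HIST1H2AE and HIST1H2BG, an H2A and an H2B gene, were present in 2 of the 4 lines. HIST1H2AE measured 8.70, 13.3 and 9.22 CPM in T47D and 0.911, 1.40 and 2.78 CPM in PC3 normoxia, and had 0 counts in all A549 libraries and 4 counts in 1 HCT116 library. HIST1H2BG measured 10.3, 8.81 and 10.04 CPM in T47D and 0.870, 1.27 and 2.03 CPM in PC3 normoxia, and had 0 counts in all HCT116 libraries and at most 4 in any A549 library. Neither gene passed the hypoxia test in PC3 or T47D cells. HIST1H3J, an H3 gene, was at 0.728, 0.913 and 0.668 CPM in A549 and 0.812, 0.799 and 0.717 CPM in T47D normoxia, against 0.166, 0.147 and 0 CPM in PC3 cells, while HCT116 cells (0.432, 0.983 and 0.112 CPM) spanned the range between. Its log2 fold changes in hypoxia were -0.95 ± 0.43 (SE) in A549, -1.83 ± 0.89 in HCT116 and -1.41 ± 0.49 in T47D cells, none of which passed the test (adjusted p of 0.105, 0.1001 and 0.0733).

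Genes of the same pathway were described from lists by symbol. The counts of every list stand against the shares of all genes tested in A549, HCT116, PC3 and T47D cells. These were 17.6%, 23.3%, 16.6% and 6.55% higher and 17.8%, 27.0%, 15.7% and 6.69% lower. No list was tested as a set. SLBP, which binds the stem-loop, was lower in hypoxia in HCT116 (log2 fold change -0.63 ± 0.21 SE, adjusted p = 0.0215) and PC3 cells (-0.47 ± 0.11, adjusted p = 0.0119), and was not called in A549 (-0.20 ± 0.11) or T47D cells (-0.21 ± 0.22). NPAT was called in none, with log2 fold changes of -0.22 ± 0.12, 0.05 ± 0.20, -0.19 ± 0.09 and 0.00 ± 0.25 in A549, HCT116, PC3 and T47D cells. Of 26 genes for histone transcription and 3-prime end processing, 3, 6, 5 and 0 were higher and 7, 5, 5 and 2 lower in A549, HCT116, PC3 and T47D cells. LSM1, a subunit of the ring that promotes decay of histone mRNA, was lower in all 4 lines (-0.67, -2.02, -0.46 and -0.93). LSM10, a subunit of the U7 particle, was lower in A549, HCT116 and T47D cells (-0.87, -1.999 and -1.47), and CASP8AP2 (FLASH), which joins in the cut, in A549, HCT116 and PC3 cells (-1.10, -1.25 and -0.54). Of 14 polyadenylation genes, 0, 1, 0 and 0 were higher and 2, 1, 4 and 0 lower, with CSTF3 lower in A549 (-0.52) and PC3 cells (-0.40).

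Of 50 genes for S phase and DNA replication, 2, 13, 0 and 0 were higher and 23, 18, 18 and 8 lower, over A549, HCT116, PC3 and T47D in that order, where 17.8%, 27.0%, 15.7% and 6.69% of all genes tested were lower. The median log2 fold changes of the list were -0.24, -0.10, -0.13 and -0.29, against -0.01, -0.03, -0.01 and -0.01 over all genes. The geminin gene GMNN (-0.83, -2.24, -0.80 and -1.20), the polymerase subunit POLE2 (-0.62, -1.94, -0.81 and -1.45) and the origin recognition subunit ORC6 (-1.07, -1.75, -0.55 and -1.15) were lower in all 4 lines. Of 24 mitosis genes, 0, 3, 0 and 0 were higher and 8, 9, 6 and 2 lower, with the checkpoint gene MAD2L1 and the spindle gene HMMR lower in all 4 lines. Of the cyclin-dependent kinase inhibitors, 3 of 5, 5 of 7, 3 of 7 and 2 of 7 tested were higher and none lower. No test compared S phase genes with the histone cluster genes. The part of S phase in the histone results was not tested.

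Most replacement histones can be made outside S phase, from ordinary polyadenylated mRNA. Their summed level was 1930 to 5489 CPM a library, against 48.0 to 757 CPM for the 73 histone cluster genes. H3F3A had at most 43 counts in a library, against at least 18869 for H3F3B, so the sum holds almost nothing of H3F3A. Of 19 listed, 12, 12, 11 and 12 were tested, and 2, 3, 0 and 0 were higher and 1, 3, 0 and 0 lower in the same order of lines. The linker histone genes H1F0 (0.77 ± 0.12 SE and 1.30 ± 0.32) and H1FX (0.67 ± 0.13 and 0.98 ± 0.24) were higher and H2AFZ, which encodes H2A.Z, was lower (-0.40 ± 0.13 and -1.63 ± 0.27) in A549 and HCT116 cells. Of 23 histone chaperones, 1, 8, 5 and 0 were higher and 4, 2, 2 and 1 lower. ASF1A, which hands over H3-H4, was lower in A549, HCT116 and T47D cells (-0.65, -2.12 and -1.07), HAT1, which acetylates new H4, was lower in A549, HCT116 and PC3 cells (-0.68, -0.97 and -0.44), and CABIN1 was higher in HCT116 and PC3 cells (1.498 and 0.67). Without HCT116 normoxia library 2, 9 S phase genes and 5 chaperones were higher in HCT116 cells, and 15 S phase genes and 8 mitosis genes were lower. In that fit 20.5% of all genes tested were higher and 19.6% lower.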

How the data were processed

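Counts of 24 poly(A) RNA libraries were analyzed, grouped by line, oxygen and replicate number from the sample labels. The authors made the deposited counts by trimming (Trim Galore 0.3.3), alignment (HISAT2 2.05, GRCh37), exclusion of fragments placed more than once (Picard 2.0.1) and counting on UCSC-defined genes (HTSeq 0.5.4p3, intersection-strict mode), and named DESeq2 for testing. The deposited counts are whole numbers without normalization, with totals of 22698584 to 62850747. The strand setting was not given in the sources used here.

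Computed here, tests were made with edgeR 4.0.16 under R 4.3.3 (filterByExpr, TMM, glmQLFit and glmQLFTest) over all genes, in a separate fit for each line, with Benjamini-Hochberg adjustment over all genes tested and calls at a fold change over 1.2 with an adjusted p under 0.05. The interaction of line and oxygen was fitted over 24 libraries and the difference between normoxic lines over 12. The edgeR fits were tested on simulated counts. Positions, exon lengths, stem-loops (at least 15 of 16 bases of the pattern) and repeated 50-base windows came from GRCh37 with GENCODE 44, in which HIST1H2BF, HIST1H2BG and HIST1H4F were not matched. Promoters came from RefSeq.

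The members and lists were chosen with earlier results of these data known. Genes were named by rule: the 2 highest per kilobase of each histone type, the 2 largest calls in each direction and line, calls shared by 3 or 4 lines, the 5 smallest interaction p values, the largest normoxic excess in each line, SLBP and NPAT, and up to 3 genes of each other list. HIST2H2BE, HIST2H2AC, HIST1H2AI, HIST1H2AJ, HIST1H2AH, HIST1H2AM, HIST1H2AE and HIST1H2BG were named after their values were seen.

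Same-numbered libraries of both states were compared by the correlation of their deviations from the group means. In T47D cells all 3 pairs were over 0.1 (0.200, 0.307 and 0.269), while in A549, HCT116 and PC3 cells the lowest was 0.0191, 0.0779 and 0.0986, so the numbers were taken as pairs in T47D cells only. In PC3 cells the highest correlations with another number were -0.0605, -0.0422 and -0.0459, so that pairs there remain possible. The T47D values given above still come from the fit without a block, and the call of HIST1H2BD was kept with it. The replicate block was an alternative, as were DESeq2 1.42.0, RLE size factors, library totals alone, other filters and thresholds, one fit of all 24 libraries, each library left out and each replicate number left out. Fits without HCT116 normoxia library 2 for the tests between lines and for the other lists were added after the data were seen.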

Additional observations from a re-analysis of the deposited data

Results flagged for a closer look

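The hypoxia response of 3 histone cluster genes differed between the 4 lines by the test of that difference, the interaction of line and oxygen in one edgeR fit of 24 libraries. HIST1H4H (adjusted p = 0.00214) was 7.24-fold higher in hypoxia in A549 cells and had log2 fold changes of 0.17 ± 0.25 (SE) and -0.05 ± 0.26 in PC3 and T47D cells. Over 10 alternatives its adjusted p was 4.25e-08 to 0.0662, and it missed the threshold without the libraries numbered 1. HIST1H2AC (adjusted p = 0.0357) was lower in hypoxia in HCT116 cells, and its adjusted p was 0.00687 to 0.462 over 10 alternatives. HIST1H2BL (adjusted p = 0.0447) had 0 counts in the 3 hypoxic HCT116 libraries, and its adjusted p was 0.0146 to 0.530 over 9 alternatives. Without HCT116 normoxia library 2, HIST1H2AC had an adjusted p of 0.141 and HIST1H2BL of 0.115. With the replicate number as a block, that of HIST1H2BL was 0.0584.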

How the results depend on the processing

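Of the counts and sums that answer a comparison, 149 alternatives stayed near the reported value and 29 moved. No call reversed its direction, but the T47D ratio of summed levels (1.04) crossed 1, at 0.864 to 1.18 with one library left out and 0.903 with library totals alone. In HCT116 cells 2 members were higher in one fit of all 24 libraries and 0 at an adjusted p under 0.01, and 4 were lower at a mean count of at least 50 and 4 at an adjusted p under 0.01. With one library left out, 0 (without normoxia library 2) to 13 (without normoxia library 3) were lower in HCT116 cells. These shares were 0% against 19.6% of all genes and 39.4% against 24.2%. Between 1 and 5 were higher in PC3 cells (5 without normoxia library 3, 13.5% against 14.7%). In T47D cells 0 to 1 were higher and 0 to 4 lower (4 without hypoxia library 3, 9.09% against 12.2%). With a replicate number or HCT116 normoxia library 2 left out 1 to 3 members passed the interaction test. In PC3 cells 1 member was higher in one fit of all 24 libraries and 1 at an adjusted p under 0.01. In T47D cells 0 were higher with library totals alone (against 4.73% of all genes) and 0 at an adjusted p under 0.01. For the interaction, DESeq2 gave 7 members and an adjusted p under 0.01 gave 1. Normoxic differences numbered 18 at a mean count of at least 50, where fewer members were tested. No share of all genes stands beside these interaction and normoxic counts or the counts at an adjusted p under 0.01. Those counts therefore give no comparison of the members with all genes. The A549 ratio of 1.24 was 1.47 without HIST1H2BK and 1.57 without members that share a 50-base sequence. Scaling to library totals alone shifted the all-gene median of log2 fold changes to -0.13 in A549 and -0.12 in T47D cells, and that of the members to 0.00 and -0.65. Where no construction shows it, the cause was not tested.

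With the replicate block, 5 members were higher in A549 cells (14.7%, against 18.0% of all genes), 1 higher (3.33%, against 26.8%) and 12 lower (40.0%, against 29.6%) in HCT116 cells, 3 higher in PC3 cells (8.82%, against 17.4%) and 1 higher in T47D cells (2.38%, against 9.09%), with 0 lower in A549, PC3 and T47D cells (against 18.0%, 16.6% and 10.5%). For the interaction 3 members passed, among them HIST1H4H and HIST1H2AC but not HIST1H2BL (adjusted p = 0.0584). In normoxia 39 differed between lines. The shares of all genes in these tests between lines with the block are not given. The block changed no count of calls in T47D cells, where the numbers pair the libraries. The low counts of most members limit the precision of their fold changes.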
